A study of Mus musculus with 24 samples.

Results

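The genes described here make the proteins that remove or prevent R-loops: Rnaseh1, Rnaseh2a, Rnaseh2b, Rnaseh2c, Aqr, Dhx9, Ddx5, Xrn2 and Top1. They were taken as a list by gene symbol, 9 of the 47937 genes in the count tables, and all 9 passed the filter on low counts in both assays. An R-loop is an RNA:DNA hybrid with a displaced DNA strand that forms when a transcript anneals back to its template. RNase H enzymes digest the RNA of such hybrids, helicases unwind them, and topoisomerase and termination factors limit their formation or persistence. In embryonic stem (ES) cells, hybrids form at transcribed genes and also at the repeats of pericentric heterochromatin, and hybrids that stay unresolved are a known source of replication stress and DNA damage.

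Nuclear RNA of 4 mouse ES cell lines was sequenced in 2 replicates each. RNA-seq gave 8 of the libraries and MeRIP-seq the other 16, in which sonicated RNA is sequenced before (input) and after immunoprecipitation (IP) with an antibody against N6-methyladenosine (m6A). WT26 are wild type cells and Mettl14KO is 1 clone (A10) made from them by CRISPR-Cas9, lacking the partner that holds RNA for the methyltransferase. RBC cells carry BirA-V5 and Cre-ERT2 at the Rosa26 locus and have intact Mettl3, and Mettl3KO is 1 clone (2c4d) made from RBC, so it carries the same insertions and lacks the catalytic subunit. All lines are ES cells of a 129/Sv x C57Bl6 background, grown with LIF and serum replacement on gelatin without feeder cells. The question addressed for these genes was whether their RNA levels, and the m6A signal of their own transcripts, differ in the absence of either subunit. Each knockout is a single clone, so the gene and the clone cannot be told apart. The paper calls the 2 MeRIP-seq replicates biological, and the labels do not say whether replicates were separate cultures. The p-values therefore measure the spread between these samples, which may be technical.

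RNA-seq totals ranged from 11321459 to 13743181 reads and MeRIP-seq totals from 9394163 to 28441282. The 9 ES cell markers checked (Pou5f1, Sox2, Nanog and 6 others) were present in every line, but all 9 passed the test for a lower level in both knockouts (edgeR adjusted p up to 0.05). Their summed level was 24399 to 24529 normalized counts in Mettl14KO against 33938 to 34986 in WT26, and 16665 to 17454 in Mettl3KO against 30322 to 30766 in RBC. Markers of other cells summed to less than the ES cell markers but also moved. Of the neural ones, Sox1 was present in every RNA-seq library, at 141.2 to 285.0 normalized counts. The neural markers Pax6 and Sox1 summed to 164.6 to 199.7 in WT26 and 232.4 to 244.5 in Mettl14KO, and to 294.3 to 296.7 in RBC and 407.0 to 429.1 in Mettl3KO, of which Pax6 rose in both (log2 1.96 and 1.21) and Sox1 passed in neither. The 3 endoderm markers summed to 30.7 to 33.3 in WT26 and 78.9 to 81.1 in Mettl14KO, where Gata4 and Gata6 rose, and to at most 41.4 in RBC and Mettl3KO. The 4 feeder markers summed to 81.4 to 84.8 in WT26 and 27.3 to 29.0 in Mettl14KO. They summed to 101.2 to 110.4 in RBC and 44.3 to 62.4 in Mettl3KO. Of these, Thy1 fell in both knockouts, and Col3a1 was at 0 in WT26, Mettl14KO and RBC. Col1a2 rose in Mettl3KO (log2 2.26, edgeR adjusted p = 4.1e-04) and had 1.67 in Mettl14KO (edgeR adjusted p = 0.0944), with at most 24.2 normalized counts. Col1a1 had 0.01 in Mettl14KO and 0.06 in Mettl3KO. The mesoderm marker T was at most 10.7. Reads of the targeted genes were still counted, with a log2 fold change of -0.31 for Mettl14 in Mettl14KO (edgeR adjusted p = 0.00609) and of -0.16 for Mettl3 in Mettl3KO (edgeR adjusted p = 0.0588, where 18.4% of its exonic bases lie on Tox4 of the other strand). These counts are per gene and do not show whether an edited exon is lost. The 2 RBC replicates of RNA-seq stood farther apart than those of other lines (chi-square divided by its degrees of freedom, 35.6 against 2.76 to 5.75). In MeRIP-seq the IP libraries numbered 2 stood apart from those numbered 1 in every line: the standard deviation of log2 IP over input over all tested features was 0.832 to 1.01 in pairs numbered 1 and 1.16 to 1.61 in pairs numbered 2.

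The members differed widely in level. On the scale of normalized RNA-seq counts per kilobase of exon, averaged over the 8 libraries, the helicase Ddx5 was highest at 2316, followed by the helicase Dhx9 at 895.6 and the exonuclease Xrn2 at 667.8, all at or above the 96.2 percentile of the tested genes. The other 6 members lay between 106.5 for Rnaseh2b and 163.1 for Rnaseh2c, that is between the 66.5 and 77.9 percentiles. Across the lines, the line means of Ddx5, Rnaseh2b and Rnaseh2c spanned 1.69-, 1.68- and 1.69-fold, and those of Xrn2 and Top1 spanned 1.17-fold.

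**Figure D1:**
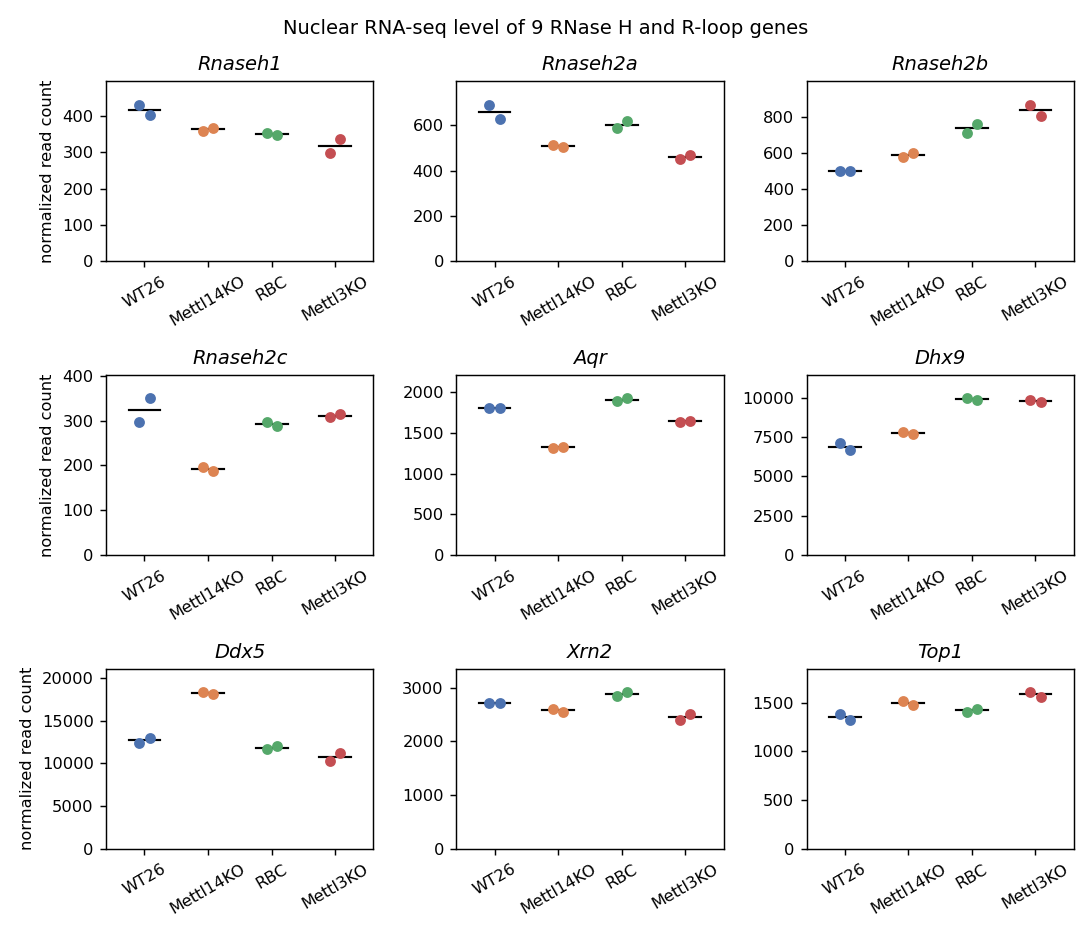
Normalized RNA-seq read counts (y axis, from 0, a separate scale for each gene) of the 9 genes in the 4 lines (x axis), where points are the 2 libraries and the line is their mean. Rnaseh2c is lowest and Ddx5 highest in Mettl14KO, while Rnaseh2b and Dhx9 are higher in RBC and Mettl3KO than in WT26 and Mettl14KO.

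Most members changed in level in each knockout, as did most genes, and by less than 2-fold. In Mettl14KO against WT26, 7 of 9 changed (edgeR adjusted p up to 0.05), against a background of 52.5% of the 17021 genes tested: Rnaseh2b, Dhx9, Ddx5 and Top1 rose (25.5% of all genes did) and Rnaseh2a, Rnaseh2c and Aqr fell (27.0%). In Mettl3KO against RBC, 6 of 9 changed against a background of 53.4%: Rnaseh2b and Top1 rose (25.2%) and Rnaseh2a, Aqr, Ddx5 and Xrn2 fell (28.1%). No member passed a log2 fold change of 1 in size, which 14.5% of the tested genes did in Mettl14KO and 13.6% in Mettl3KO with the same limit on the adjusted p. The median log2 fold change of the members was -0.07 in Mettl14KO and -0.14 in Mettl3KO, against 0.00 and -0.00 over all tested genes. In bulk RNA, a change in the share of cells that express a gene and a change in its RNA per cell cannot be told apart, and the part of the ES cell, neural, endoderm and feeder markers that moved with the knockouts was not tested. Scaling by library size in place of DESeq2 size factors moved the median of all genes by 0.15 in Mettl3KO against RBC and by -0.16 in RBC against WT26, and the share of rises among calls from 47.3% to 63.8% and from 50.6% to 28.2%.

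**Figure D2:**
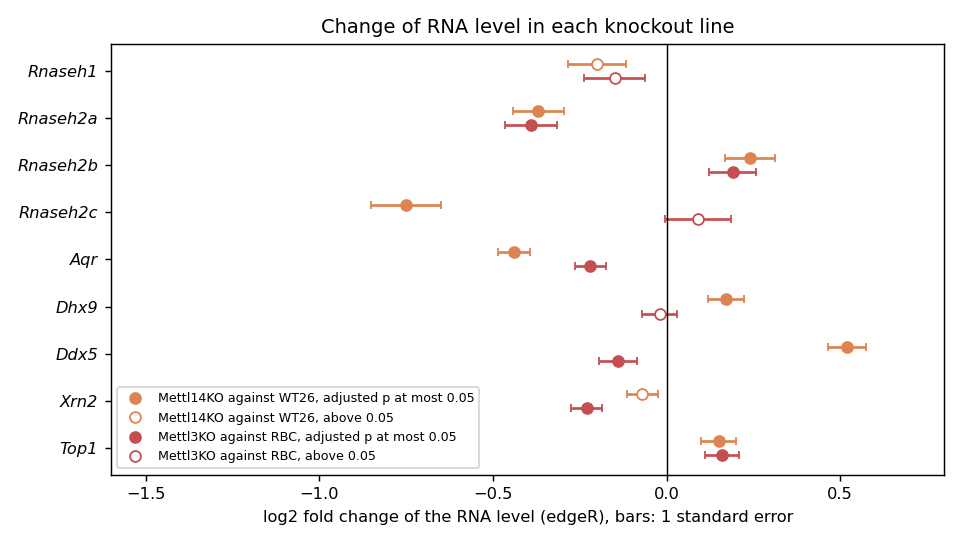
Log2 fold change of RNA level (x axis) of each gene in Mettl14KO against WT26 and in Mettl3KO against RBC, with bars of 1 standard error and filled points for an adjusted p up to 0.05. Rnaseh2a, Rnaseh2b, Aqr and Top1 are filled on the same side in both knockouts, Ddx5 lies on opposite sides, and Rnaseh2c stands apart at -0.75 in Mettl14KO.

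RNase H1, encoded by Rnaseh1 (ENSMUSG00000020630, GRCm38 chromosome 12, 28649602 to 28659589, plus strand), is the single-subunit enzyme that cuts the RNA of longer hybrids and also acts in mitochondria. Its normalized counts were 432 and 404 in WT26, 361 and 366 in Mettl14KO, 353 and 349 in RBC, and 298 and 337 in Mettl3KO. Each knockout lay below its control without overlap, but neither fall passed the test: the log2 fold changes were -0.20 (SE 0.0844) in Mettl14KO (edgeR adjusted p = 0.0517) and -0.15 (SE 0.0878) in Mettl3KO (edgeR adjusted p = 0.173). The first lay at the limit and was past it with TMM (edgeR adjusted p = 0.0492), library size scaling (0.0313), a minimum of 10 counts in every library (0.0479) or only the 4 libraries compared (0.0416). With library size scaling the second was 0.01. The control lines themselves differed, with a log2 of -0.25 for RBC against WT26 (SE 0.0855, edgeR adjusted p = 0.0250), a call lost in DESeq2 (0.144) and when RBC replicate 1 (edgeR adjusted p = 0.0888), RBC replicate 2 (0.115) or WT26 replicate 1 (0.164) was left out.

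RNase H2 is a complex of 3 proteins that also removes single ribonucleotides from DNA, with Rnaseh2a as its catalytic subunit and Rnaseh2b and Rnaseh2c as the subunits it needs for its activity. The genes of these subunits did not move together. Rnaseh2a (ENSMUSG00000052926, chromosome 8, 84956610 to 84969767, minus strand) had 692 and 628 normalized counts in WT26, 514 and 506 in Mettl14KO, 589 and 618 in RBC, and 453 and 468 in Mettl3KO. Neither knockout overlapped its control. It fell in each, with a log2 fold change of -0.37 (SE 0.0734) in Mettl14KO (edgeR adjusted p = 3.4e-04) and -0.39 (SE 0.0748) in Mettl3KO (edgeR adjusted p = 2.6e-04). Exons of Gm49661 on the same strand cover 9.66% of its exonic bases and exons of Prdx2 on the other strand 5.04%, and Prdx2 was also lower in both knockouts (log2 fold change -0.20 in Mettl14KO and -0.29 in Mettl3KO). Whether reads are shared was not tested.

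Rnaseh2b (ENSMUSG00000021932, chromosome 14, 62292589 to 62372992, plus strand) moved the other way, with 497 and 500 normalized counts in WT26, 577 and 600 in Mettl14KO, 712 and 759 in RBC, and 868 and 805 in Mettl3KO. All 4 lines were separated, in the order WT26, Mettl14KO, RBC and Mettl3KO. The rises in the knockouts were 0.24 (SE 0.0721, edgeR adjusted p = 0.00998) and 0.19 (SE 0.0679, edgeR adjusted p = 0.0285) on the log2 scale. The control lines differed as well, with RBC higher by 0.56 (SE 0.0712, edgeR adjusted p = 6.1e-06). DESeq2 did not call either knockout (adjusted p = 0.0543 and 0.121), and the call was lost in Mettl14KO without WT26 replicate 1 (edgeR adjusted p = 0.0530) or Mettl14KO replicate 2 (0.0733), and in Mettl3KO without replicate 1 of RBC (0.176) or of Mettl3KO (0.202).

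Rnaseh2c (ENSMUSG00000024925, chromosome 19, 5601873 to 5607019, plus strand) had 297 and 350 normalized counts in WT26 and 196 and 187 in Mettl14KO, against 297 and 288 in RBC and 309 and 314 in Mettl3KO. Mettl14KO was the line that stood apart, and WT26 and Mettl3KO overlapped. The log2 fold change in Mettl14KO was -0.75 (SE 0.100, edgeR adjusted p = 6.3e-06), a level of 0.595 times that of WT26, and in Mettl3KO it was 0.09 (SE 0.0953, edgeR adjusted p = 0.434), or 0.24 with library size scaling (edgeR adjusted p = 0.0403). The difference between the knockouts' changes was itself past the test, at 0.84 (SE 0.138, edgeR adjusted p = 9.1e-05). Exons of Kat5 on the other strand cover 24.8% of the exonic bases of Rnaseh2c, and the level of Kat5 had a log2 fold change of 0.15 in Mettl14KO (edgeR adjusted p = 0.142). Whether reads are shared between Rnaseh2c and Kat5 was not tested.

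Among the helicases, Aqr (ENSMUSG00000040383, chromosome 2, 114101170 to 114187024, minus strand), the intron-binding helicase of the spliceosome, fell in both knockouts. It had 1799.6 and 1800.5 normalized counts in WT26, 1320 and 1332 in Mettl14KO, 1888 and 1924 in RBC, and 1633 and 1648 in Mettl3KO. The fall was -0.44 (SE 0.0458, edgeR adjusted p = 3.0e-07) in Mettl14KO and -0.22 (SE 0.0452, edgeR adjusted p = 5.7e-04) in Mettl3KO on the log2 scale. The difference of these, 0.22 (SE 0.0643), passed in edgeR (adjusted p = 0.00899) and not in DESeq2 (0.0666). With library size scaling the value in Mettl3KO was -0.07 (edgeR adjusted p = 0.269).

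Dhx9 (ENSMUSG00000042699, chromosome 1, 153455758 to 153487660, minus strand), a DExH-box helicase that unwinds RNA:DNA hybrids and double-stranded RNA, was higher in RBC and Mettl3KO than in WT26 and Mettl14KO. Its normalized counts were 7108 and 6685 in WT26, 7851 and 7696 in Mettl14KO, 9969 and 9888 in RBC, and 9893 and 9714 in Mettl3KO. RBC was higher than WT26 by 0.53 (SE 0.0515, edgeR adjusted p = 2.8e-07) on the log2 scale, while the change in Mettl14KO was 0.17 (SE 0.0514, edgeR adjusted p = 0.00917) and in Mettl3KO -0.02 (SE 0.0512, edgeR adjusted p = 0.788), where RBC and Mettl3KO overlapped. The call in Mettl14KO was lost without WT26 replicate 2 (edgeR adjusted p = 0.116) or Mettl14KO replicate 1 (0.0651). The difference between the knockouts' changes was -0.19 (SE 0.0726, edgeR adjusted p = 0.0416). With library size scaling the value in Mettl3KO became 0.13 (edgeR adjusted p = 0.0422) and the difference -0.01 (0.894).

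Ddx5 (ENSMUSG00000020719, chromosome 11, 106780355 to 106789185, minus strand), a DEAD-box helicase that acts in splicing, transcription and hybrid removal, changed in opposite directions. It had 12415 and 12939 normalized counts in WT26 and 18332 and 18088 in Mettl14KO, and 11712 and 11991 in RBC and 10329 and 11176 in Mettl3KO. The rise in Mettl14KO was 0.52 (SE 0.0542, edgeR adjusted p = 3.0e-07), a level 1.44 times that of WT26, and the fall in Mettl3KO was -0.14 (SE 0.0542, edgeR adjusted p = 0.0367) on the log2 scale. The difference was -0.66 (SE 0.0766, edgeR adjusted p = 2.0e-06). The fall in Mettl3KO was not past the test without RBC replicate 2 (edgeR adjusted p = 0.139), without Mettl3KO replicate 1 (0.267) or with only the 4 libraries compared (0.0805), and was 0.01 with library size scaling. The microRNA genes Mir3064 and Gm25994 lie within Ddx5 exons and cover 1.16% and 1.75% of its exonic bases.

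Xrn2 (ENSMUSG00000027433, chromosome 2, 147012996 to 147078000, plus strand) degrades the RNA left behind by cleavage at the poly(A) site and takes part in transcription termination. Its normalized counts were 2710 and 2718 in WT26, 2604 and 2554 in Mettl14KO, 2846 and 2917 in RBC, and 2404 and 2514 in Mettl3KO. The fall in Mettl3KO was -0.23 (SE 0.0448, edgeR adjusted p = 3.2e-04) on the log2 scale and -0.08 (adjusted p = 0.159) with library size scaling, and the value in Mettl14KO was -0.07 (SE 0.0448, edgeR adjusted p = 0.179). WT26 and Mettl14KO did not overlap, nor did RBC and Mettl3KO. The difference between the knockouts' changes was -0.16 (SE 0.0634) and did not pass the test (edgeR adjusted p = 0.0562), though it did without Mettl3KO replicate 2 (0.0296) or with a minimum of 10 counts in every library (0.0489).

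Top1 (ENSMUSG00000070544, chromosome 2, 160645888 to 160722764, plus strand) encodes a topoisomerase that relaxes supercoiled DNA and so limits R-loops. It had 1387 and 1317 normalized counts in WT26, 1518 and 1478 in Mettl14KO, 1408 and 1436 in RBC, and 1607 and 1560 in Mettl3KO. Each knockout lay above its control. The rises were 0.15 (SE 0.050, edgeR adjusted p = 0.0199) in Mettl14KO and 0.16 (SE 0.0498, edgeR adjusted p = 0.0140) in Mettl3KO on the log2 scale. DESeq2 called neither (adjusted p = 0.103 and 0.0793), and library size scaling ended the first (edgeR adjusted p = 0.0640). Leaving out WT26 replicate 2 or Mettl14KO replicate 1 ended the first call (edgeR adjusted p = 0.174 and 0.115), and leaving out RBC replicate 1, RBC replicate 2 or Mettl3KO replicate 1 ended the second (0.0880, 0.0549 and 0.0653).

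The control lines differed in 3 of 9 members (Rnaseh1, Rnaseh2b and Dhx9) against a background of 38.9% of genes, and the knockouts' changes differed from each other in 4 of 9 (Rnaseh2c, Aqr, Dhx9 and Ddx5) against 43.2%. None passed a log2 of 1 in size, which 8.98% of genes did between the controls and 14.0% between the knockouts' changes. With library size scaling 6 members differed between the controls, as did 45.0% of genes. The input libraries of MeRIP-seq, which measure the same transcripts a second time at a wider spread, called no member in any of these line comparisons, against backgrounds of 0.398% in Mettl14KO, 0.760% in Mettl3KO and 0.584% between the controls. At an unadjusted p under 0.05 they gave 0, 0 and 1 members, the last being Rnaseh2b, where 10.6%, 11.7% and 8.13% of features had one. DESeq2 called 0 members in each, and 1.84%, 2.15% and 1.31% of features. The sign of the input difference was that of RNA-seq for 7 of the 7 members called in Mettl14KO, 5 of the 6 called in Mettl3KO and 3 of the 3 called between the controls. The exception in Mettl3KO was Rnaseh2b, with -0.24 in input (SE 0.271, edgeR adjusted p = 0.829) against 0.19 in RNA-seq. Ddx5 was higher in the Mettl14KO input by 0.47 (SE 0.266, edgeR adjusted p = 0.597) on the log2 scale, Aqr had -0.38 (SE 0.323, edgeR adjusted p = 0.831) and Rnaseh2b 0.30 (SE 0.274, edgeR adjusted p = 0.849). Rnaseh2c had -0.22 (SE 0.332, edgeR adjusted p = 0.942) there, 0.53 less in size than in RNA-seq, and its 2 inputs in WT26, at 163.4 and 98.4 normalized counts, spanned those of Mettl14KO at 125.5 and 98.9. Without WT26 replicate 1 that value was 0.20. Rnaseh2b was higher in RBC input than in WT26 by 0.79 (SE 0.273, edgeR adjusted p = 0.324), which passed with only the libraries compared (0.0402).

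Other R-loop genes also changed in both directions, mostly by less than 2-fold. The wider set held 56 other genes in 7 groups (other helicases, messenger RNA packaging, the complex around Aqr, other topoisomerases, other nucleases, termination partners of Xrn2, and genome stability factors), and all 56 were tested. In Mettl14KO 10 rose and 20 fell, and in Mettl3KO 10 rose and 26 fell, with median log2 fold changes of -0.07 and -0.14. That is 10 and 20 of 56 where 25.5% of all genes rose and 27.0% fell, and 10 and 26 of 56 where 25.2% rose and 28.1% fell. Among those that fell in Mettl14KO was the recombination gene Brca2, at -0.96 (SE 0.0504, edgeR adjusted p = 4.7e-11), with 9671 and 9755 normalized counts in WT26 and 4974 and 4988 in Mettl14KO. The largest rises there were Srsf2 at 0.67 and the export adaptor Alyref at 0.44. In Mettl3KO the largest falls were Thoc6 of the THO complex at -0.67 and the replication clamp Pcna at -0.64, and the largest rises were the flap nuclease Fen1 at 0.63 and the helicase Brip1 at 0.49. Genes on the other strand cover 78.8% of Fen1 (Gm10143), 15.6% of Srsf2 (Mettl23) and 14.2% of Thoc6 (Hcfc1r1).

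By the root mean square difference of centred log2 levels over the 8 RNA-seq libraries, the genes with the pattern closest to Rnaseh1 were Bnip2 (0.0328), Rbm7 (0.0367) and Capza2 (0.0407). Those closest to Ddx5, the member with the widest range of line means (0.76 on the log2 scale), were Rab10os (0.0388), Clcn3 (0.0539) and Klhdc2 (0.0554). They are given as a description over 4 lines.

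In MeRIP-seq, a transcript counted as enriched where its log2 of IP over input was above 1 with an adjusted p up to 0.05. Of the members Rnaseh2c alone was called, in all 4 lines. Aqr, Dhx9 and Xrn2 lay on the opposite side, with lower normalized counts in IP than in input. Gene counts show which transcripts were pulled down and do not place m6A within them. Per the paper, the methyltransferase complex was reported to act on an adenosine within a short consensus, of which GGACT is a common form. In 1 protein-coding transcript a gene of GENCODE M21 (the longest coding part), all 9 members hold GGACT on the transcribed strand at least once, as do 86.7% of 21877 genes, with a median of 1.02 per kilobase. Rnaseh2c had 2.59 per kilobase (2 in 771 bases, the 94.9 percentile), Aqr 1.23, Xrn2 0.582 and Dhx9 0.433 (2 in 4616 bases, the 19.6 percentile). Rnaseh2c was highest and Dhx9 lowest of the 9 members both in density and in WT26 IP. Aqr, with a low IP, was above the median at the 62.2 percentile. Rnaseh1 had 1.37 per kilobase, Rnaseh2a 1.34, Rnaseh2b 1.34, Ddx5 0.843 and Top1 0.519. Whether motif density goes with IP was not tested. All windows of the 4 members past a test of IP over input are shown, since the results turn on these transcripts. Capitals mark GGACT, and each is a match of letters and not a measured site.
Rnaseh2c coding, joined across an intron: ctggagcgGGACTtcgaccgc
Rnaseh2c 3′ UTR: gtccctgaGGACTgagaacca
Aqr 5′ UTR: gaacgccgGGACTtctcaggt
Aqr coding, first: gtggtaccGGACTggctgcat
Aqr coding, joined across an intron: tgcagcctGGACTcaccatgg
Aqr coding, next: agaacagaGGACTttaattgt
Aqr coding, next: gaactcggGGACTgcctgccc
Aqr coding, last: ttcgcagtGGACTggacagat
Dhx9 coding: ttatggaaGGACTttcccagt
Dhx9 3′ UTR: ttaagactGGACTctgtcgga
Xrn2 coding: acgttgaaGGACTgtgctggg
Xrn2 3′ UTR: aaatttgtGGACTttagtaaa
On GRCm38 the Rnaseh2c windows span chr19:5602360-5602455 and chr19:5602836-5602856 on the plus strand. Those of Aqr, in the order shown, span chr2:114175304-114175324, chr2:114130714-114130734, chr2:114126001-114126975, chr2:114125907-114125927, chr2:114118840-114118860 and chr2:114116618-114116638 on the minus strand. The windows of Dhx9 span chr1:153467037-153467057 and chr1:153456052-153456072 on the minus strand, and those of Xrn2 chr2:147040911-147040931 and chr2:147077951-147077971 on the plus strand.

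In pairs of normalized counts (input, then IP), Rnaseh2c had 163.4 and 386.7 in WT26 replicate 1 and 98.4 and 501.1 in replicate 2. The pairs were 125.5 and 330.4, and 98.9 and 433.7, in Mettl14KO. They were 157.4 and 324.4, and 117.4 and 516.0, in RBC, and 141.7 and 336.5, and 123.6 and 470.4, in Mettl3KO. IP exceeded input by over 2-fold in all 8 pairs, by a log2 of 1.04 to 2.35, and more in replicate 2 of every line. The fitted log2 was 1.75 in WT26 (SE 0.326, edgeR adjusted p = 0.00609), 1.75 in Mettl14KO (SE 0.332, edgeR adjusted p = 0.00798), 1.61 in RBC (SE 0.326, edgeR adjusted p = 0.00899) and 1.60 in Mettl3KO (SE 0.327, edgeR adjusted p = 0.0189). It was thus 1 of 9 members called, against backgrounds of 14.5%, 11.9%, 13.4% and 2.54% of 22621 features in the same order. For comparison, the mRNAs of Klf4, Sox2 and Nanog, which the study used as m6A controls, had 2.08, 1.97 and 1.10 in WT26. In Mettl3KO they had 1.12, 1.89 and 0.40 (edgeR adjusted p = 0.192, 0.0262 and 0.452). Their changes from RBC to Mettl3KO, at -1.03, -0.21 and -0.67, did not pass the test (edgeR adjusted p = 0.854, 0.936 and 0.854).

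The size of the Rnaseh2c enrichment varied with the replicate. With input and IP paired by replicate, the value in Mettl3KO was 1.58 at an adjusted p of 0.0505 (edgeR), which ends the call. Without replicate 2 the log2 of Rnaseh2c was 1.25 in WT26, 1.41 in Mettl14KO, 1.05 in RBC and 1.25 in Mettl3KO. Without replicate 1 it was 1.92 in Mettl3KO. Such fits leave 1 library in each group of that line, so they cannot decide whether the call for this gene holds. Kat5, which shares bases with Rnaseh2c on the other strand, had a log2 of 0.50 in WT26 (edgeR adjusted p = 0.142).

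**Figure D3:**
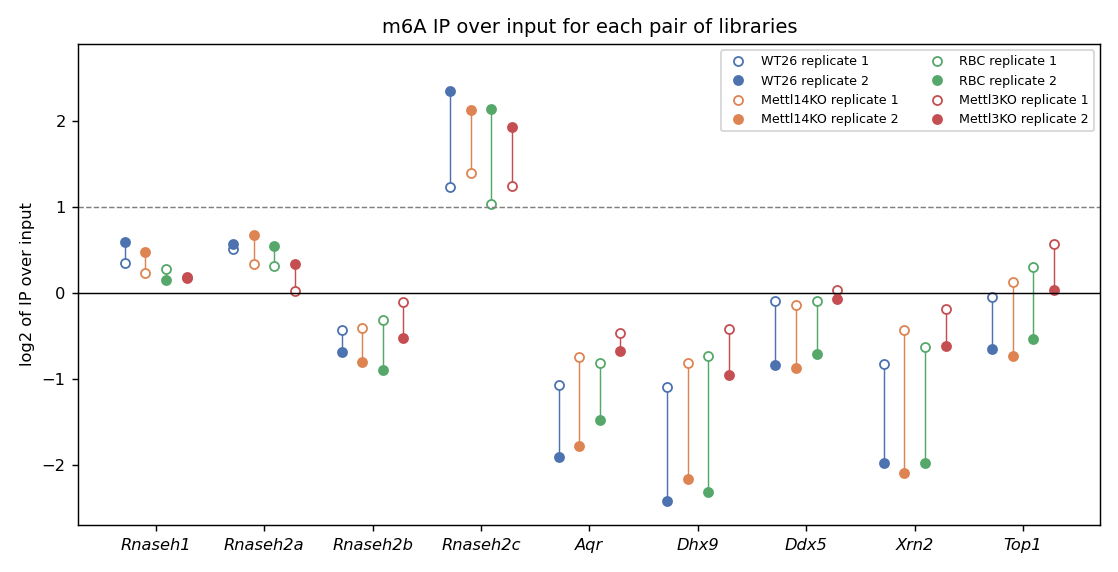
Log2 of IP over input (y axis) of each gene in every pair of libraries, with open points for replicate 1 and filled points for replicate 2 joined by a line, and a dashed line at the limit of 1. Rnaseh2c lies above 1 in all 8 pairs, Aqr, Dhx9 and Xrn2 lie below 0 in all 8, and for Aqr, Dhx9 and Xrn2 the Mettl3KO point is the closest to 0 among those of the same replicate number.

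Dhx9 had the lowest IP signal of the members in WT26, Mettl14KO, RBC and Mettl3KO alike. Its pairs of input and IP were 5800 and 2723, and 7652 and 1435, in WT26, and 5808 and 3302, and 7863 and 1746, in Mettl14KO. They were 7965 and 4787, and 9543 and 1915, in RBC, and 7004 and 5233, and 7320 and 3781, in Mettl3KO. IP lay below input in all 8 pairs, and the highest IP counts were those of Mettl3KO and RBC replicate 1. The fitted log2 was -1.69 in WT26 (SE 0.437, edgeR adjusted p = 0.0130), -1.44 in Mettl14KO (SE 0.434, edgeR adjusted p = 0.0290), -1.38 in RBC (SE 0.433, edgeR adjusted p = 0.0312) and -0.67 in Mettl3KO (SE 0.427, edgeR adjusted p = 0.339). With input and IP paired by replicate, the adjusted p in Mettl14KO was 0.0502 (edgeR).

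Aqr had -1.40 in WT26 (SE 0.328, edgeR adjusted p = 0.00951), -1.22 in Mettl14KO (SE 0.329, edgeR adjusted p = 0.0195), -1.11 in RBC (SE 0.326, edgeR adjusted p = 0.0248) and -0.57 in Mettl3KO (SE 0.323, edgeR adjusted p = 0.284). Its pairs lay between -1.91 and -0.46. Xrn2 had -1.29 in WT26 (SE 0.440, edgeR adjusted p = 0.0376), -1.13 in Mettl14KO (SE 0.439, edgeR adjusted p = 0.0712), -1.21 in RBC (SE 0.439, edgeR adjusted p = 0.0523) and -0.39 in Mettl3KO (SE 0.434, edgeR adjusted p = 0.598), with pairs between -2.09 and -0.19. Past the test for a lower IP were thus 3 of 9 members in WT26 (16.1% of all features), 2 in Mettl14KO (12.0%), 2 in RBC (13.1%) and 0 in Mettl3KO (2.22%, with 0 members also lower at an unadjusted p under 0.05). Xrn2 lay near the limit in Mettl14KO and RBC and was past it in DESeq2 (adjusted p = 0.0422 and 0.0262) and with a replicate block by number (edgeR adjusted p = 0.0197 and 0.0135). Without replicate 2 the log2 in WT26, Mettl14KO and RBC was -1.06, -0.74 and -0.8 for Aqr and -1.08, -0.8 and -0.73 for Dhx9. That of Xrn2 in WT26 was -0.82. Those fits leave 1 library in each group of the line and cannot decide a call. Scaling by library size moved the median of all features by 0.37 to 0.49 and the share of those higher in IP among calls from 51.3% to 79.4% in WT26, from 52.9% to 85.4% in Mettl14KO, from 54.3% to 85.5% in RBC and from 55.5% to 91.0% in Mettl3KO. With it, Dhx9 and Aqr were lower in IP past the test in WT26 (edgeR adjusted p = 0.0354 and 0.0429) and in no other line, and Xrn2 in none. In WT26 1719 of 22700 features were lower past it.

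The other members did not pass the test in either direction in the main fit. Some did under alternatives, which are given here as a dependence on the processing. Rnaseh1 and Rnaseh2a were slightly higher in IP, at 0.46 and 0.54 in WT26, with values above 0 in all 8 pairs. Rnaseh2b was slightly lower, at -0.54 in WT26 and below 0 in all 8 pairs, and Ddx5 had -0.46 in WT26 and was below 0 in 7 of 8 pairs. Top1 had -0.30 in WT26 and 0.32 in Mettl3KO, with pairs on both sides of 0. With library size scaling Rnaseh2a was higher in IP past the test in WT26, Mettl14KO and RBC (0.96, 0.93 and 0.90, edgeR adjusted p = 0.0122, 0.0168 and 0.0170). Rnaseh1 was so in WT26 and Mettl14KO (0.87 and 0.77, edgeR adjusted p = 0.0185 and 0.0381), and none was above 1. Of 22700 features, 6619 in WT26, 5872 in Mettl14KO and 6690 in RBC were also higher in IP past the test. With a replicate block common to input and IP, Rnaseh2a in WT26 (edgeR adjusted p = 0.0492) and Rnaseh2b in RBC (0.0466) passed. The deviations of same-numbered IP libraries correlated by 0.598 to 0.806 across lines, and with a term for the number fitted separately to input and IP, chosen after this was seen, all 5 passed in WT26 (edgeR adjusted p = 0.0381 for Rnaseh1, 0.00728 for Rnaseh2a, 0.0145 for Rnaseh2b, 0.00836 for Ddx5 and 0.0316 for Top1). Rnaseh2a, Rnaseh2b and Ddx5 also passed in Mettl14KO and RBC under that term, and none of the 5 had a log2 above 1. In WT26 the term also moved the share of all features enriched above a log2 of 1 from 14.5% to 17.5%. Under neither this term nor the common block was the share past the adjusted p alone counted, so such passes have no background.

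IP over input varied with gene length, with a median log2 in WT26 of 0.54 for genes of at most 2000 exonic bases and 0.00 for those over 8000, so members were also placed among genes of like length. Rnaseh2c (1715 exonic bases) was then at the 86.9 percentile in WT26 and 83.8 in RBC. Dhx9 and Aqr, both over 8000 bases, were at the 1.81 and 4.52 percentiles in WT26, and Xrn2, with 3981 bases, was at 3.59. Rnaseh1, Rnaseh2a and Top1 lay between 37.4 and 56.8 in WT26.

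**Figure D4:**
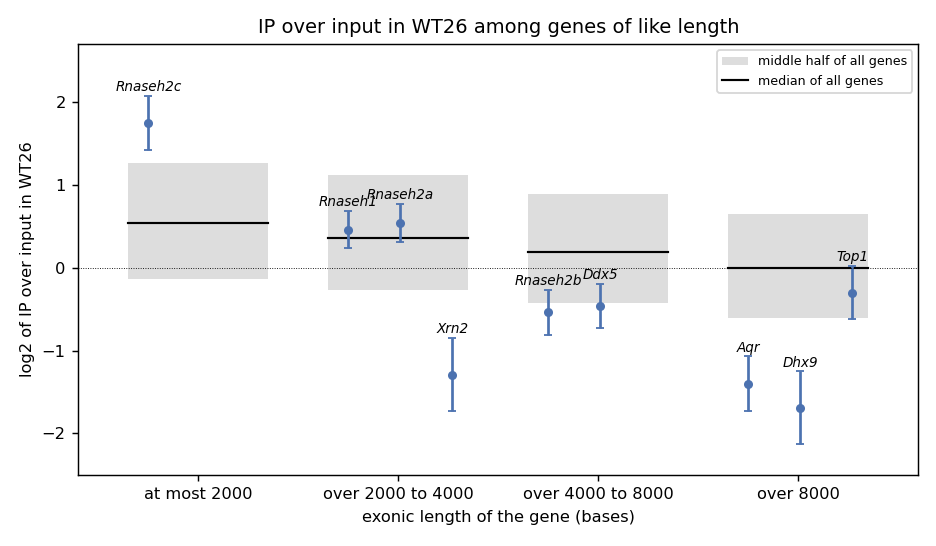
Log2 of IP over input in WT26 (y axis) of each member, with bars of 1 standard error, over the median and the range between the quartiles of all tested genes in 4 classes of exonic length (x axis). Rnaseh2c lies above the upper quartile of its class, and Xrn2, Aqr and Dhx9 lie farthest below the lower quartile of theirs, with Rnaseh2b and Ddx5 just below it.

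Relative to the median feature, the m6A signal of no member changed past the test in either knockout. The size factors centre IP on input in each line. The median log2 over all features was 0.02 in WT26, 0.01 in Mettl14KO, 0.02 in RBC and -0.01 in Mettl3KO. A loss of m6A shared by most transcripts would therefore not be seen here. The differences of IP over input ran from -0.10 to 0.26 on the log2 scale in Mettl14KO against WT26 and from -0.25 to 0.82 in Mettl3KO against RBC. edgeR called 0 of 22621 features in each comparison (0%), and of the members 0 had an unadjusted p under 0.05 in either, as had 126 and 787 features. DESeq2 called 1 feature in Mettl14KO and 0 in Mettl3KO, neither of them a member. For Rnaseh2c the difference in Mettl3KO was -0.01 with a standard error of 0.455 (edgeR adjusted p of 1), so a change of moderate size was not detectable at this spread. The largest differences in Mettl3KO were those of Xrn2 at 0.82 (SE 0.613, edgeR adjusted p = 0.854), Dhx9 at 0.72 (SE 0.602, edgeR adjusted p = 0.854) and Aqr at 0.55 (SE 0.456, edgeR adjusted p = 0.854), toward 0. By replicate number, Mettl3KO minus RBC was 0.44 and 1.36 for Xrn2, 0.31 and 1.37 for Dhx9 and 0.35 and 0.81 for Aqr, positive in each. The spread of IP over input over all features was also narrower in Mettl3KO (standard deviation 0.832 and 1.16) than in RBC (0.945 and 1.56), and its part in these differences was not tested. With a term for the replicate number fitted separately to input and IP, chosen after the separation of the IP libraries was seen, the difference was 0.91 for Xrn2 (SE 0.257, edgeR adjusted p = 0.122) and 0.83 for Dhx9 (SE 0.234, edgeR adjusted p = 0.122), and the common biological coefficient of variation fell from 0.273 to 0.145. Under the same term Dhx9 and Aqr also passed the test for a lower IP in Mettl3KO (-0.68 and -0.55, edgeR adjusted p = 0.00480 and 0.0270). The share of all features that did so was not counted. Between the control lines 0 members and 0 features were called in edgeR and 0 in DESeq2, where 133 features and 0 members had an unadjusted p under 0.05.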

How the data were processed

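Nuclear RNA of 4 lines was measured in 24 libraries, 2 replicates a group, grouped by the labels. The authors deposited raw counts per gene (RNA-seq), and per gene and repeat subfamily (MeRIP-seq), without normalization. Per the labels, reads were trimmed with cutadapt 1.8.1 and aligned to GRCm38 with STAR 2.6.0c, and per the paper MeRIP-seq reads were counted with TEtranscripts in multi mode and 3 MeRIP reactions were combined per replicate. The counting tool of RNA-seq and the strand setting are not given in the sources used here, so reads of overlapping genes may be shared. Here counts were filtered by filterByExpr, scaled by DESeq2 1.42.0 size factors and tested by the quasi-likelihood method of edgeR 4.0.16 (R 4.3.3), in 1 fit a table, with p-values adjusted over every feature tested (Benjamini-Hochberg). Normalized counts are counts divided by the size factor. Totals of 9394163 to 28441282 set counting error only, and 2 replicates limit precision more. Per the paper, input and IP of a replicate come from the same RNA, and those of 1 number were taken as a pair. Their deviations from the group mean correlated by 0.195 to 0.280 over 13662 features. Same-numbered libraries of different lines correlated by 0.251 to 0.452 for input and 0.598 to 0.806 for IP. These correlations do not single out the pairs, so the pairing was taken from the design. The main tests had no term for these pairs, which entered only in an alternative. The members, lists and named genes (all members, both targeted genes, 3 m6A control mRNAs, and the 2 largest rises and falls of the wider list) were chosen with earlier results of these data known. A gene that this rule names is not reported here. Scripts were tested on simulated data. Alternatives were other normalizations, filters, DESeq2, replicate blocks, subsets of libraries, genes without repeats, another call limit and leaving out each replicate.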

Additional observations from a re-analysis of the deposited data

Results flagged for a closer look

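In RNA-seq, 4 of the 9 members had changes that differed between the knockouts by a test of the difference itself (the Mettl3KO change against RBC minus the Mettl14KO change against WT26, edgeR), where 43.2% of all genes did. The difference was 0.84 for Rnaseh2c (SE 0.138, adjusted p = 9.1e-05), 0.22 for Aqr (SE 0.0643, adjusted p = 0.00899), -0.19 for Dhx9 (SE 0.0726, adjusted p = 0.0416) and -0.66 for Ddx5 (SE 0.0766, adjusted p = 2.0e-06) on the log2 scale. The knockouts are 1 clone each from different parental lines, so subunit, clone and parental line cannot be told apart here. The values of Rnaseh2c and Ddx5 passed in DESeq2 and without each replicate in turn, and that of Dhx9 was not past the limit without WT26 replicate 2, either Mettl14KO replicate, either RBC replicate or Mettl3KO replicate 2 (adjusted p = 0.0640 to 0.174).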

How the results depend on the processing

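With 2 replicates a group, leaving out a replicate leaves a lone library that is assumed to vary like the other groups. Over such omissions as many members as in the main fit, or fewer, were called for RNA level and for IP over input. A smaller share of all features was called there too. In RNA-seq the main fit called 7 members in Mettl14KO, 6 in Mettl3KO, 3 between the controls and 4 for the difference between the knockouts' changes. DESeq2 called 5, 4, 2 and 3 in that order. The shares of all genes called were 52.5%, 53.4%, 38.9% and 43.2% in the main fit and 38.6%, 40.2%, 26.2% and 30.2% in DESeq2. Mettl14KO had 8 with TMM (52.5% of genes), a minimum of 10 counts (56.2%) or only the libraries compared (57.1%). Mettl3KO had 5 with library size scaling (55.8%) or only the libraries compared (53.6%). The difference had 5 with a minimum of 10 counts (47.6%) and 3 with library size scaling (45.9%). With all replicates kept, the following counts moved by over 1.5 times. A log2 limit of 1 gave 0 in each RNA comparison (8.98% to 14.5% of genes). Library size scaling gave 6 between the controls (45.0%). Pairs of input and IP as the block gave 0 enriched in Mettl3KO (2.22% of features). Only the libraries compared gave 1 between control inputs (3.66%). A replicate block by number, separate for input and IP, gave 1 each for the inputs of Mettl14KO (6.51%) and of the controls (4.34%). The replicate block on the number in RNA-seq, where the labels share only a number (same-number correlations of -0.0713, 0.453 and -0.172), gave the main counts of 7, 6, 3 and 4, and RBC numbers crossed against WT26 gave 3. The block on pairs of input and IP ended the call of Rnaseh2c in Mettl3KO and of Dhx9 (lower) in Mettl14KO and no other call in MeRIP-seq. The replicate block by number, common to input and IP, ended none, and the separate one, chosen after seeing the data, left Rnaseh2c alone enriched in all 4 lines (1.76 in WT26). Over all features, those enriched were 3272, 2692, 3030 and 575 in WT26, Mettl14KO, RBC and Mettl3KO, and 5714, 5127, 5840 and 2525 with library size scaling. Those called between inputs were 90, 172 and 132 and ran over the alternatives with all replicates from 48 to 1473, 88 to 2199 and 47 to 982.

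Library size scaling turned the sign, in RNA-seq, of Rnaseh1, Dhx9 and Ddx5 in Mettl3KO (0.01, 0.13 and 0.01), of Aqr, Xrn2 and Top1 between the controls (-0.07, -0.06 and -0.08) and of the Xrn2 difference between knockouts (0.02). In IP over input it turned Top1 in WT26, Mettl14KO and RBC (0.13, 0.19 and 0.36), Ddx5 in RBC and Mettl3KO (0.06 and 0.37) and Rnaseh2b in Mettl3KO (0.09), and it gave 0.08 for the Rnaseh2c input in Mettl3KO. Ddx5 in Mettl3KO IP, at -0.01, was 0.04 with TMM and 0.03 with only the libraries compared. The Rnaseh2c change of IP over input in Mettl3KO, at -0.01, was 0.04 with TMM, 0.02 without repeats and 0.01 with the separate replicate block. Over omitted replicates it ran from -0.54 to 0.56, the Rnaseh2c inputs from -0.53 to 0.20 in Mettl14KO and -0.25 to 0.18 in Mettl3KO, Top1 IP from -0.73 to 0.14 in Mettl14KO and -0.54 to 0.30 in RBC, and Ddx5 IP in Mettl3KO from -0.07 to 0.04. The cause was not tested. Members had 192 to 18567 counts in an RNA-seq library and 47 to 13242 in a MeRIP-seq library, lowest for Rnaseh2c, so its values carry the most counting error.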
